A study of Mus musculus with 6 samples.

Results

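The effect of losing CIS was examined in cells washed from the airspaces of the mouse lung by bronchoalveolar lavage (BALF), by setting the 2 RNA sequencing libraries of the genotype Cis_KO against the 2 of the genotype WT. These 4 of the 6 libraries in the series were chosen by title and genotype label, and no measured value entered the choice. The other group, Cis_Stat6_DKO, lacks CIS and the transcription factor STAT6 together, and its 2 libraries entered the model so that the spread was estimated from all 6. Per the labels the cells were immune cells from lung, received no treatment, gave total RNA with Trizol and carried 1 batch date. The sources used here do not give the strain, age or number of mice or the allele that removes CIS. They also do not say whether each replicate is a mouse of its own, so a p-value measures the spread between these samples and nothing wider.

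CIS, the product of Cish, belongs to the SOCS family of proteins, which bind phosphorylated cytokine receptors or their kinases and shut signalling down. Its gene is switched on by STAT5, so that receptors for cytokines such as GM-CSF and IL-7 induce their own brake. Alveolar macrophages, the main resident cells of the airspace, need GM-CSF to develop and to clear surfactant lipid. They also dispose of haem and iron, keep an antioxidant programme that the factor NRF2 controls, and make chemokines through NF-kappaB when activated.

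The libraries held 50762354 to 65937118 counts. Levels are given as CPM, read counts scaled to equal library totals with TMM factors, always in the order of replicates 1 and 2. Cish itself stood at 46.2 and 56.2 CPM in WT and at 4.34 and 3.52 CPM in Cis_KO. Both mutant libraries lay below both WT libraries, and the fold met the separation rule explained below, but its adjusted p of 0.0624 missed the threshold of 0.05. The files hold 1 count per gene, so reads from an untouched part of Cish and whole transcripts cannot be told apart. Stat6, intact in both genotypes, stood at 233 and 227 CPM in WT and 264 and 221 CPM in Cis_KO. All 32 genes of the alveolar macrophage list were measured, and their median log2 difference between the genotypes was 0.01. Of the 32, 10 lay higher and 8 lower without overlap, where 21.4% and 25.9% of all tested genes did. By edgeR 0 were called, 7 had an unadjusted p under 0.05, and DESeq2 called 2 higher. With 0.274% of all tested genes called by edgeR, 0 of 32 is near the background and is no result about the list. Car4, a carbonic anhydrase, stood at 368 and 442 CPM in WT and 637 and 1227 CPM in Cis_KO, and Bhlhe41, a transcription factor of alveolar macrophages, at 147 and 138 CPM against 75.2 and 98.3 CPM. The defining genes Siglecf, at 182 and 210 CPM in WT and 232 and 177 CPM in Cis_KO, and Pparg, at 158 and 179 CPM and 184 and 183 CPM, were present in every library.

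Cis_KO replicate 2 stood apart. Haemoglobin genes took 3.29% of its counts, against 0.00156% in Cis_KO replicate 1 and 0.0194% to 0.0207% in WT. It had 2360 tested genes without a read, where the other 3 libraries had 455 to 763. The summed level of the erythroid markers was 38790 CPM in it, with Hba-a1 alone at 13324 CPM, against 201, 193 and 15.2 CPM in WT replicates 1 and 2 and Cis_KO replicate 1. The neutrophil markers summed to 916 CPM in it and to 176 to 249 CPM elsewhere, led by Ltf at 284 CPM and S100a8 at 189 CPM in this library. The epithelial markers summed to 552 CPM against 194 to 251 CPM, with Scgb1a1, a club cell protein, at 141 CPM. Among B cell markers, Cd22 stood at 232 to 264 CPM in all 4 libraries, whereas Ighm reached 48.5 CPM in this library and at most 4.54 CPM in the others. Marker sums of dendritic cells, platelets, and monocytes with interstitial macrophages were higher in both Cis_KO libraries than in both WT libraries. The last sum was 296 and 238 CPM in WT and 446 and 480 CPM in Cis_KO, and Fn1 supplied most of the difference, at 133 and 92.0 CPM in WT and 266 and 294 CPM in Cis_KO, while Cd163, Folr2 and Lyve1 were at or near 0 in all 4 libraries. Of the 16 tested genes of that list, 0 were called by edgeR or DESeq2, and 1 had an unadjusted p under 0.05. Without overlap, 6 lay higher and 2 lower, where 21.4% and 25.9% of all tested genes did. Among the 6 were Cx3cr1, a chemokine receptor of monocytes and interstitial macrophages, at 0.380 and 0.0438 CPM in WT and 0.735 and 2.28 CPM in Cis_KO, and Ly6c2, the Ly6C antigen of classical monocytes, at 0.638 and 0.789 CPM against 0.844 and 7.95 CPM. In the dendritic cell and platelet lists 1 gene also supplied most of the difference. Without Clec1b, a called gene, the platelet markers summed to 6.35 and 4.65 CPM in WT and 3.22 and 9.18 CPM in Cis_KO, and without Cd24a the dendritic cell markers summed to 61.3 and 51.3 CPM against 59.4 and 111 CPM, so that the genotypes overlapped. In bulk RNA, fewer cells of a type and less RNA per cell cannot be told apart.

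**Figure D1:**
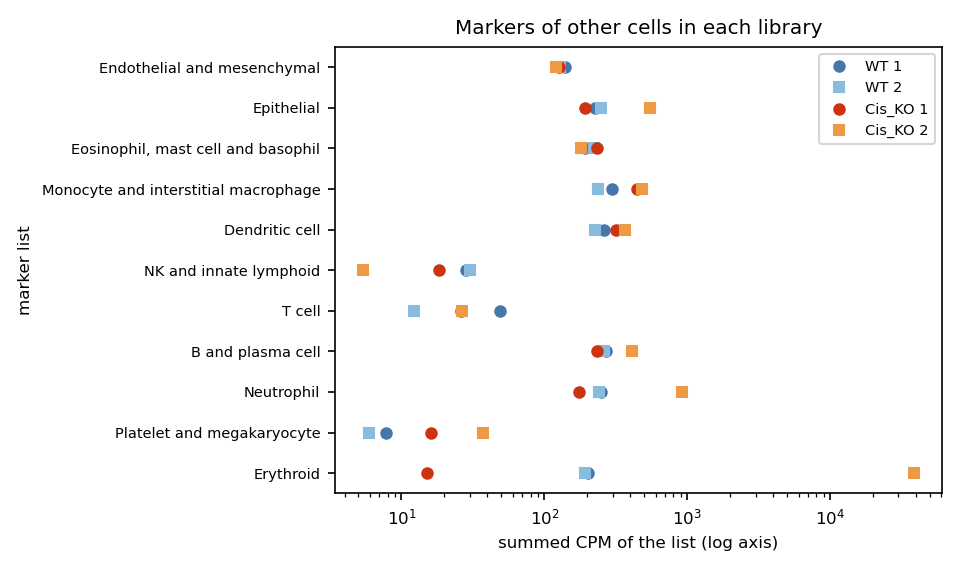
Summed CPM (log axis) of the marker genes of 11 other cell types in the 2 WT and 2 Cis_KO libraries, 1 point per library. Cis_KO replicate 2 lies far to the right for erythroid markers, at 38790 CPM, and above the other 3 libraries for neutrophil and epithelial markers.

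Because the Cis_KO libraries differed, each gene is described in 2 ways. A gene is called when the edgeR quasi-likelihood test gave a Benjamini-Hochberg adjusted p under 0.05 over the 16765 tested genes. A gene is separated when the nearest libraries of the 2 genotypes lay at least 2-fold apart, and the higher genotype averaged 1 CPM or more, which is a description and not a test. In all, 46 genes were called, 0.274% of those tested, with 20 higher (0.119%) and 26 lower (0.155%) in Cis_KO. Separation held for 307 genes (1.83%), 109 higher (0.650%) and 198 lower (1.18%), and included all 46. The groups did not overlap at all for 47.4% of genes, 21.4% higher and 25.9% lower in Cis_KO, so non-overlap by itself says little with 2 libraries a side. At these shares of called and separated genes, a gene list without such a member is near the background, which is no result about the list. The 2 Cis_KO libraries lay more than 2-fold apart in 3567 genes and the WT libraries in 482. The median distance between the mutant libraries was 0.14 on the log2 scale for the called genes that fell, with 1.02 the largest, 0.46 for those that rose, with 1.57 the largest, and 0.52 for all tested genes. Close replicates help a gene to pass the test, so nothing is read from these distances.

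**Figure D2:**
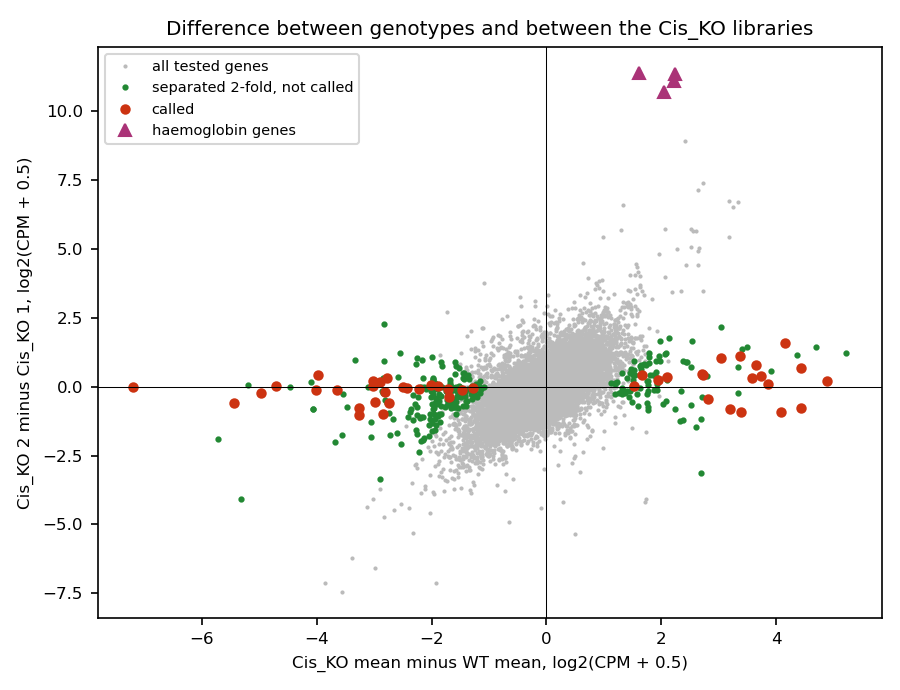
Each tested gene by its mean log2 difference between Cis_KO and WT (horizontal) and the log2 difference between Cis_KO replicates 2 and 1 (vertical), on log2(CPM + 0.5). Called genes, in red, lie to the left and right of the centre, at most 1.57 from 0 on the vertical axis, whereas the haemoglobin genes stand at the top, carried by replicate 2 alone.

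The number of calls rested on the libraries in the fit. Without either Cis_KO library, that genotype kept 1 library and added nothing to the estimate of the spread. Nothing is therefore read from which genes those fits called. Only 4 were called without WT replicate 1, 3 without WT replicate 2, 6 without either library of Cis_Stat6_DKO, and 6 when only the 4 libraries of WT and Cis_KO were fitted. No called gene changed direction in any of these fits. All 46 were separated, so leaving out libraries could hardly turn a direction, and nothing is read from this.

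**Figure D3:**
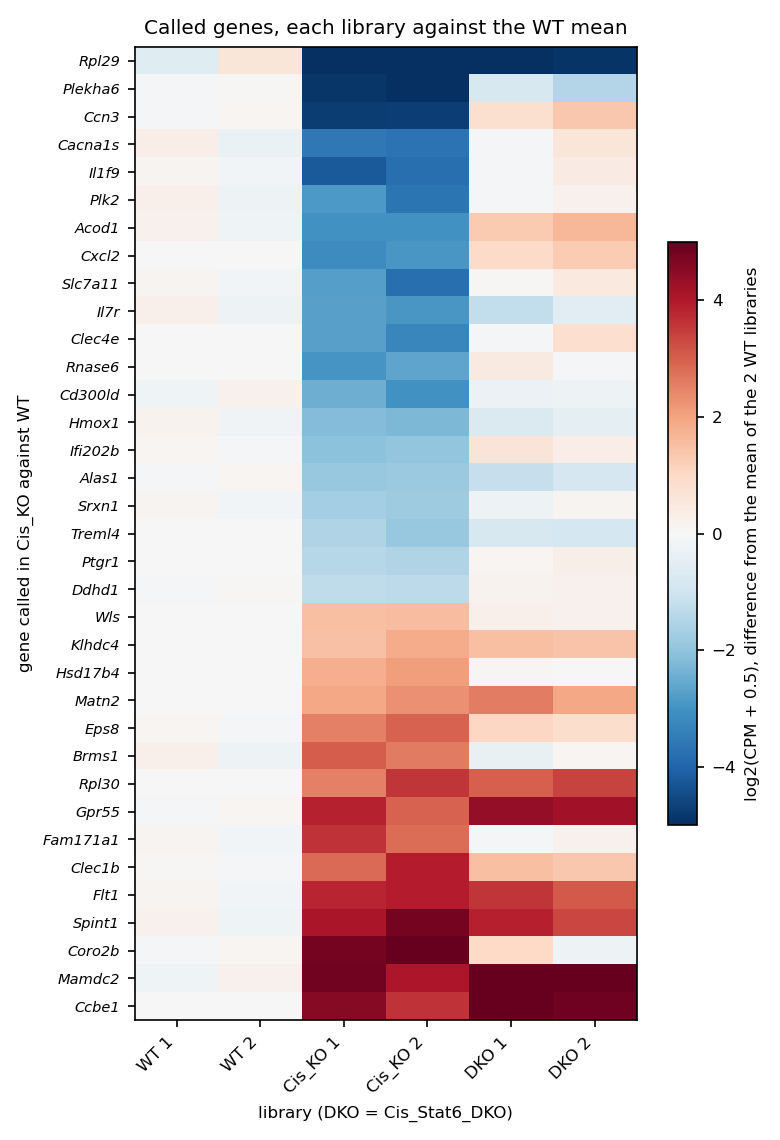
The 35 called genes named by rule, as log2(CPM + 0.5) minus the mean of the 2 WT libraries, in all 6 libraries (blue lower, red higher, colours capped at 5 either way). Both Cis_KO columns carry the same colour in every row, and the columns of the double mutant (DKO, Cis_Stat6_DKO), which did not enter the contrast, are shown for their values.

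Hmox1, the haem oxygenase that breaks haem into iron, carbon monoxide and biliverdin and lies on mm10 chromosome 8 from 75093621 to 75100589, measured 2373 and 1837 CPM in WT and 465 and 436 CPM in Cis_KO. Its mutant libraries lay almost 4-fold below the nearer WT library, and its log2 change was -2.22 ± 0.22 (SE, n = 2 per genotype, adjusted p 0.0268). Counted per length, Hmox1 had the highest level of all called genes in each of the 4 libraries, at 1284 and 981 FPKM in WT and 261 and 193 FPKM in Cis_KO. Alas1, the first and rate-limiting enzyme of haem synthesis, went the same way, from 333 and 381 CPM to 95.2 and 97.5 CPM, a log2 change of -1.89 ± 0.19 (adjusted p 0.0298). The enzymes that open the making of haem and its breakdown were both lower. Alas1 lies 1.05 Mb from Cish, so for it loss of CIS and position near the altered gene cannot be told apart.

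Slc7a11, the cystine importer that feeds glutathione synthesis, stood at 280 and 238 CPM in WT and 37.9 and 18.5 CPM in Cis_KO, with a log2 change of -3.20 ± 0.38 (adjusted p 0.0441). Srxn1, a sulfiredoxin that repairs over-oxidised peroxiredoxins, fell by 1.74 ± 0.22 on the log2 scale, from 278 and 224 CPM to 77.3 and 73.2 CPM (adjusted p 0.0494). Ptgr1, a reductase of prostaglandins and reactive aldehydes, fell by 1.48 ± 0.18, from 70.5 and 68.5 CPM to 25.8 and 23.9 CPM (adjusted p 0.0475). The Cis_KO replicates of Slc7a11 were themselves about 2-fold apart.

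Of the 24 genes in the list of NRF2 targets and cystine and glutathione enzymes, all were tested. Called lower were 3 and none higher, where 0.155% of all tested genes were called lower. Separated lower were 6 and none higher, where 1.18% of all tested genes were separated lower. Without overlap, 15 lay lower and 1 higher, where 25.9% and 21.4% of all tested genes did. The list's median log2 change was -0.74, where the median of all tested genes was -0.05, and its median in Cis_KO replicates 1 and 2 was -0.59 and -0.82. Members that were separated without being called were Nqo1, a quinone reductase, at 7.63 and 7.73 CPM in WT and 2.59 and 1.46 CPM in Cis_KO, and Gclm, the modifier subunit of the enzyme that starts glutathione synthesis, at 169 and 148 CPM and 71.7 and 49.9 CPM. Txnrd1, a thioredoxin reductase, was the last of the 6, at 336 and 333 CPM and 149.8 and 87.0 CPM. Nfe2l2, which encodes NRF2, stood at 159 and 160.5 CPM in WT and 110.9 and 85.3 CPM in Cis_KO and was not called. The ferritin genes Ftl1 and Fth1 overlapped between the genotypes. Other genes of the same kind, picked after their values were seen, were separated and not called. They were Osgin1, Akr1b8 and Mafg, and the iron and haem genes Slc11a2, Slc11a1, Steap3 and Spic. Slc11a2, an iron transporter, stood at 42.4 and 39.6 CPM in WT and 13.1 and 16.3 CPM in Cis_KO. Spic, a factor of macrophages that recycle red cells, stood at 42.2 and 45.2 CPM against 6.41 and 1.21 CPM. The summed erythroid markers differed widely between Cis_KO replicates 1 and 2, as given above, and their part in these levels was not tested.

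**Figure D4:**
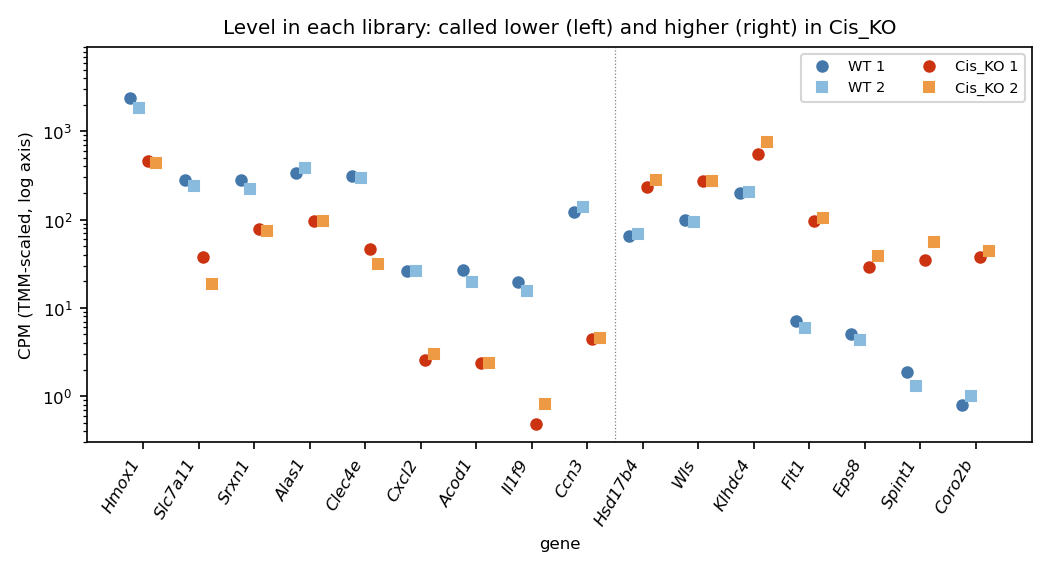
CPM (log axis) of 9 genes called lower (left of the dotted line) and 7 called higher in Cis_KO, 1 point per library. For each of the 16 genes both Cis_KO points lie on the same side of both WT points, from Hmox1 at 436 to 465 CPM below 1837 to 2373 CPM, to Coro2b at 37.9 to 43.7 CPM above 0.794 to 0.994 CPM.

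The neutrophil-attracting chemokine Cxcl2 stood at 26.0 and 26.2 CPM in WT and 2.55 and 3.01 CPM in Cis_KO (log2 change -3.23 ± 0.23, adjusted p 0.0113). Its neighbour Cxcl3, a chemokine of the same kind, was separated but not called, at 15.4 and 18.0 CPM against 0.719 and 1.87 CPM. Acod1, which makes itaconate, stood at 26.8 and 19.4 CPM against 2.34 and 2.38 CPM (log2 change -3.29 ± 0.27, adjusted p 0.0158). Il1f9, the cytokine IL-36 gamma, stood at 19.5 and 15.6 CPM against 0.484 and 0.822 CPM (log2 change -4.76 ± 0.40, adjusted p 0.0158). In each of these genes both mutant libraries lay far below both WT libraries.

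The list of classical activation and NF-kappaB genes had 33 tested members of 36. Called lower were 3 of them, Cxcl2, Acod1 and Slc7a11, the last shared with the NRF2 list, and none was called higher. Separated lower were 8, and 22 lay lower without overlap, with none higher in either count. Among all tested genes, 0.155% were called lower, 1.18% separated lower and 25.9% lower without overlap. The median log2 change was -0.81, and -0.96 and -0.88 in Cis_KO replicates 1 and 2, so the 2 mutant libraries were alike in it. Ikbke, a kinase of the NF-kappaB and interferon pathways, was separated at 39.7 and 30.0 CPM against 8.75 and 7.99 CPM. The cytokine gene Il1b was separated at 15.4 and 20.4 CPM against 5.77 and 4.50 CPM, while Il6 and Nos2 were close to 0 in every library and were not tested. Of 17 tested genes of the IL-1 and IL-36 family, 1 was called lower, Il1f9, and 2 were separated lower. Of the 34 interferon-stimulated genes, 14 lay lower and 1 higher without overlap, where 25.9% and 21.4% of all tested genes did. The median log2 change of the 34 was -0.55, but edgeR called none of them. Unadjusted p was under 0.05 for 7 of them, and DESeq2 called 1. Only Gbp3, a guanylate-binding protein of interferon responses, was separated, at 22.8 and 20.4 CPM against 8.50 and 6.39 CPM.

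Clec4e, the lectin Mincle that recognises glycolipids of mycobacteria and fungi, stood at 308 and 298 CPM in WT and 45.8 and 31.1 CPM in Cis_KO, a log2 change of -2.98 ± 0.36 (adjusted p 0.0441). Clec4d, its partner lectin in the same gene cluster, was separated without being called, at 97.3 and 95.9 CPM against 34.1 and 20.7 CPM. Cd300ld, a receptor of the CD300 family, stood at 28.7 and 38.9 CPM against 5.72 and 3.63 CPM (log2 change -2.85 ± 0.31, adjusted p 0.0352). Treml4, a receptor of the TREM family, stood at 121 and 116 CPM against 41.3 and 31.4 CPM (log2 change -1.71 ± 0.20, adjusted p 0.0441). For Treml4 the fall was the smallest of these.

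Rnase6, an antibacterial ribonuclease, stood at 29.9 and 29.5 CPM in WT and 3.44 and 4.38 CPM in Cis_KO (log2 change -2.93 ± 0.27, adjusted p 0.0217). Ifi202b, an interferon-inducible gene of the Ifi200 family, stood at 22.5 and 19.4 CPM against 4.72 and 4.93 CPM (log2 change -2.12 ± 0.23, adjusted p 0.0352). Il7r, the receptor chain for IL-7, stood at 32.9 and 22.6 CPM against 3.74 and 3.20 CPM (log2 change -2.999 ± 0.36, adjusted p 0.0441). Il7r is also a marker of lymphocytes, and the 14 T cell markers, none of which was called or separated, summed to 48.8 and 12.3 CPM in WT and 26.2 and 26.4 CPM in Cis_KO. In the list of 32 phagocytic and pattern receptors, 1 gene was called lower and 1 higher, 3 were separated lower and 2 higher, and the median log2 change was -0.20. One of those separated higher was Fcgr2b, the inhibitory receptor for IgG, at 39.9 and 40.0 CPM in WT and 104 and 89.2 CPM in Cis_KO.

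The promoters of called genes were searched for letters that STAT proteins and NF-kappaB are known to bind, in the 250 bases before each gene's start as given by RefSeq on GRCm38.p6. An entry was matched for 11090 tested genes, among them 19 of the 26 genes called lower and 10 of the 20 called higher. The letters TTCNNNGAA, the core of a STAT5 site and the same on both strands, were found in 5 of the 19 called lower, which are Alas1, Ifi202b, Il1f9, Il7r and Slc7a11. They were found in 1 of the 10 called higher and in 7.24% of all matched promoters. Among separated genes they were found in 10.7% of those lower and 4.55% of those higher. In the window before the RefSeq start of Cish, chr9:107296409-107296658, they had no match. That window lies inside the Cish span given with the counts, which begins at 107296026. Nothing is read from it about the bases before that position. The window of 4 of the 5 genes is printed 5′ to 3′ on the gene's strand, with the matched letters in capitals, because these promoters were picked for holding them, after the matches were seen.
Slc7a11: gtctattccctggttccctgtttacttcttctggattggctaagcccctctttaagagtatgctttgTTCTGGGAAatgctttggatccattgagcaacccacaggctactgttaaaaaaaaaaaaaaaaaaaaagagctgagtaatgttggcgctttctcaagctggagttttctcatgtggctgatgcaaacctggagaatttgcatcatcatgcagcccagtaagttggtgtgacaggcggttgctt
Il1f9: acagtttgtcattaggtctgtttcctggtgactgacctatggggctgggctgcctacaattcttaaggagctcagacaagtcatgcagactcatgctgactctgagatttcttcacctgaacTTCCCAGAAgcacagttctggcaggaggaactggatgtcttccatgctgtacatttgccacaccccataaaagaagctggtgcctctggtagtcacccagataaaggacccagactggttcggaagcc
Il7r: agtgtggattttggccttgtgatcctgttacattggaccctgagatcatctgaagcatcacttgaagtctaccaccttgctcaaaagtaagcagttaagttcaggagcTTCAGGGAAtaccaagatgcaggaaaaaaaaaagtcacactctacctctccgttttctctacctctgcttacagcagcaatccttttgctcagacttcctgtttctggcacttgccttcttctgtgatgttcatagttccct
Alas1: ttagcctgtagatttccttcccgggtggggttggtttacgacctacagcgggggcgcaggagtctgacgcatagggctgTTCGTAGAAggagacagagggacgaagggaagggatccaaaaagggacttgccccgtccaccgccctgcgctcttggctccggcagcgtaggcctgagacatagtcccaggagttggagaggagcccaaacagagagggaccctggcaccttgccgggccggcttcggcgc
The windows are chr3:50443614-50443863 for Slc7a11 (minus strand), chr2:24186226-24186475 for Il1f9 (plus strand), chr15:9529877-9530126 for Il7r (minus strand) and chr9:106247955-106248204 for Alas1 (minus strand). The Alas1 window lies inside that gene's span given with the counts, which ends at 106248654. A match is a run of letters and was not tested as a site.

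The letters GGNNTTTCC, part of the core of NF-kappaB sites and searched on both strands, were held by 2 of the 19 genes called lower, Acod1 and Cxcl2, by 1 of the 10 called higher, and by 6.34% of all matched promoters. Cxcl2 held them at 2 places, in capitals in chr5:90903649-90903898 (plus strand), and is printed for that reason.
Cxcl2: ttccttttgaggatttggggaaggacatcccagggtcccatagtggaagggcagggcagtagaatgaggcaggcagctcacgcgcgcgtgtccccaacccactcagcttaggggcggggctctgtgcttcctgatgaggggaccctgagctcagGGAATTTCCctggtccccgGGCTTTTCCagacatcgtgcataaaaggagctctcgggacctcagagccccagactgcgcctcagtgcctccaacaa
The letters TGACNNNGC, the core of the element that NRF2 binds, were found in 0 of 19 matched genes called lower, 1 of 10 called higher, 15.7% of those separated lower, 12.1% of those separated higher and 13.8% of all matched promoters. Hmox1 had no entry. The letters searched besides these were TGANTCA, TGACGTCA and ATCANNCCA, each held by at most 1 gene of either called group.

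Ddhd1, a phospholipase, stood at 156 and 169 CPM in WT against 67.5 and 65.3 CPM in Cis_KO (log2 change -1.29 ± 0.16, adjusted p 0.0494). Hsd17b4, the peroxisomal enzyme of fatty acid beta-oxidation, went the other way, from 65.1 and 68.1 CPM to 237 and 282 CPM (log2 change 1.96 ± 0.18, adjusted p 0.0215). Its levels in the Cis_Stat6_DKO libraries were 70.1 and 67.5 CPM. Sult2b1, a sulfotransferase that acts on cholesterol, was separated higher without being called, at 0.259 and 0.0585 CPM in WT and 15.4 and 36.6 CPM in Cis_KO.

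In the list of 24 tested cholesterol synthesis genes, Insig1, a sterol sensor that restrains the pathway, was separated without being called, at 65.6 and 59.4 CPM against 27.8 and 8.996 CPM. Without overlap, 14 of the 24 lay lower and 2 higher, where 25.9% and 21.4% of all tested genes did. The median log2 change was -0.69, but the Cis_KO libraries differed in it, with -0.30 in replicate 1 and -0.94 in replicate 2. Stard4, a carrier of sterols between membranes, stood at 56.9 and 57.3 CPM in WT and 29.1 and 24.3 CPM in Cis_KO and was neither called nor separated. None of 32 genes of lipid uptake, storage and oxidation was called by edgeR or separated, although 6 had an unadjusted p under 0.05 and DESeq2 called 2. Without overlap, 10 of them lay higher and 10 lower, where 21.4% and 25.9% of all tested genes did. With 0.274% of all tested genes called and 1.83% separated, none among 32 is near the background and is no result about the list.

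Of 18 tested eicosanoid genes, edgeR called none, 8 had an unadjusted p under 0.05, and DESeq2 called 2 higher and 3 lower. Separated lower were Pla2g7, the phospholipase that degrades platelet-activating factor, at 118 and 106 CPM in WT and 30.1 and 13.9 CPM in Cis_KO, and Ptges, a prostaglandin E synthase, at 34.1 and 35.6 CPM against 12.2 and 14.8 CPM. Of 28 tested genes induced by IL-4 and STAT6, 1 was called higher, Flt1, where 0.119% of all tested genes were. Without overlap, 11 lay higher and 4 lower, where 21.4% and 25.9% of all tested genes did. The median log2 change of the 28 was 0.29. Separated lower were 2 of them, Cish itself and Retnla, a secreted protein of alternative activation, at 1.54 and 0.687 CPM in WT and 0.0469 and 0 CPM in Cis_KO. DESeq2 called 2 higher and 2 lower, and 6 had an unadjusted p under 0.05. Flt1 stood at 7.04 and 5.89 CPM in WT, 97.0 and 105 CPM in Cis_KO and 81.7 and 58.1 CPM in Cis_Stat6_DKO. Of 31 immediate early genes, 1 was called lower, Plk2, a stress-responsive kinase, at 45.4 and 31.4 CPM against 4.72 and 2.53 CPM. Gadd45a, a growth-arrest gene of the same list, was separated lower at 7.56 and 7.70 CPM against 1.31 and 0.959 CPM. Of the 31, 9 lay higher and 10 lower without overlap, where 21.4% and 25.9% of all tested genes did.

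The genes that rose included receptors, secreted proteins and actin regulators. Flt1, a receptor for vascular endothelial growth factors, rose from 7.04 and 5.89 CPM to 97.0 and 105 CPM, a log2 change of 3.97 ± 0.26 (adjusted p 0.00819). Endothelial and mesenchymal markers summed to 140 and 129 CPM in WT and 126 and 120 CPM in Cis_KO, with Cdh5, Kdr and Tie1 at 0 in all 4 libraries. Most of that sum was Vwf, von Willebrand factor, at 128 and 122 CPM against 122 and 106 CPM, while Pecam1, an adhesion molecule of endothelium that leukocytes carry too, stood at 0.638 and 0.0585 CPM against 1.22 and 3.15 CPM. The part of such cells in the Flt1 level was not tested. Gpr55, a receptor for lysophosphatidylinositol, stood at 1.79 and 2.15 CPM against 35.0 and 18.3 CPM (log2 change 3.76 ± 0.37, adjusted p 0.0249). Wls, the carrier that brings Wnt proteins to the cell surface, had close replicates, at 97.8 and 93.3 CPM in WT against 273 and 276 CPM in Cis_KO (log2 change 1.52 ± 0.16, adjusted p 0.0298). Spint1, an inhibitor of serine proteases, stood at 1.86 and 1.30 CPM against 34.8 and 56.2 CPM (log2 change 4.85 ± 0.40, adjusted p 0.0158). In the list of 10 tested VEGF family genes, Flt1 and Ccbe1 were called higher, and Nrp2, a co-receptor, was separated lower, at 163 and 162 CPM against 62.7 and 44.5 CPM.

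Eps8, which caps and bundles actin filaments, stood at 5.02 and 4.27 CPM in WT and 28.7 and 38.9 CPM in Cis_KO (log2 change 2.87 ± 0.27, adjusted p 0.0219). Coro2b, a coronin that binds actin, stood at 0.794 and 0.994 CPM against 37.9 and 43.7 CPM (log2 change 5.51 ± 0.62, adjusted p 0.0379). Klhdc4, a kelch-domain protein, stood at 199.9 and 207 CPM against 556 and 746 CPM (log2 change 1.68 ± 0.21, adjusted p 0.0475). Matn2, an adaptor of the extracellular matrix, stood at 16.1 and 16.8 CPM against 63.7 and 81.1 CPM (log2 change 2.14 ± 0.27, adjusted p 0.0494). Matn2 ends 4231 bases from Rpl30, a ribosomal protein gene that rose too, from 34.6 and 32.9 CPM to 196 and 408 CPM. Matrix proteins did not change as one. Ccn3, a secreted matricellular protein, fell from 123 and 138 CPM to 4.41 and 4.54 CPM (log2 change -4.86 ± 0.26, adjusted p 0.00819). Fn1, fibronectin, lay higher in Cis_KO without overlap, at 133 and 92.0 CPM against 266 and 294 CPM. It was neither called nor separated.

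Some called genes have uncertain counts because of what they overlap or resemble. Clec1b, a platelet and myeloid lectin that rose from 1.48 and 1.32 CPM to 12.8 and 28.2 CPM, overlaps Clec9a on the same strand. Clec9a was separated higher, at 0.0518 and 0.161 CPM against 2.58 and 1.48 CPM, while the platelet genes Gp6 and Tubb1 were at 0 in all 4 libraries. Gm49909 had 71.0 and 74.4 CPM in the WT libraries and no read in either Cis_KO library, which makes it at least 2620-fold lower against a floor of 3 counts over the group. This gene overlaps Myl12a and Myl12b on its strand, and Myl12a stood at 279 and 263 CPM in WT and 341 and 611 CPM in Cis_KO. Ccbe1, with 0 reads in WT and 11.1 and 5.66 CPM in Cis_KO, was at least 375-fold higher by the same floor and overlaps the predicted gene Gm50143, also called higher. The ribosomal protein genes Rpl29, which fell from 74.3 and 175 CPM to 2.72 and 1.64 CPM, and Rpl30 have many near-identical copies in the genome. Predicted genes and pseudogenes made up 5 of the 20 genes called higher and 5 of the 26 called lower.

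Of 20 tested genes of GM-CSF receptor and STAT5 signalling, 0 were separated and 0 were called by edgeR or DESeq2, 1 had an unadjusted p under 0.05, 3 lay higher and 8 lower without overlap, and the median log2 change was -0.16. With 0.274% of all genes called and 1.83% separated, a count of 0 among 20 is near the background and is no result about the list. Csf2ra, the GM-CSF receptor's alpha chain, stood at 351 and 343 CPM in WT and 315 and 453 CPM in Cis_KO, and Csf2rb, its signalling chain, at 502 and 567 CPM and 475 and 404 CPM. Stat5a stood at 34.1 and 37.1 CPM against 37.5 and 20.9 CPM, and Stat5b at 61.7 and 65.4 CPM against 63.5 and 50.2 CPM. Of the 8 SOCS family genes, Cish alone was separated. It was the only one with an unadjusted p under 0.05 and the only one that DESeq2 called. Among 18 genes that STAT5 is known to induce, Cish was again the only separated one and the only one DESeq2 called. Unadjusted p was under 0.05 for 4 of the 18, Cish among them. Without overlap, 6 lay lower, again with Cish among them, and 1 higher, where 25.9% and 21.4% of all tested genes did. Pim1, a kinase gene of that list, stood at 62.3 and 78.8 CPM in WT and 50.7 and 30.8 CPM in Cis_KO, and Osm, the cytokine oncostatin M, at 14.2 and 12.2 CPM against 7.52 and 3.84 CPM.

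Among the pathway lists, antigen presentation had the highest median. Of 12 MHC class II genes, all tested, 8 lay higher in Cis_KO without overlap and none lower, where 21.4% and 25.9% of all tested genes did. The median log2 change of the 12 was 1.27, with 0.59 in Cis_KO replicate 1 and 1.52 in replicate 2. None was called by edgeR, whereas 7 had an unadjusted p under 0.05 and DESeq2 called 5 higher. Ciita, the master activator of these genes, was the only separated member, at 0.811 and 0.935 CPM in WT and 4.08 and 5.30 CPM in Cis_KO. H2-Ab1, a chain of the class II molecule, stood at 37.1 and 22.1 CPM against 72.1 and 83.5 CPM, and Cd74, the invariant chain, at 198 and 122 CPM against 324 and 448 CPM. B cells and dendritic cells also express these genes. Dendritic cell markers summed to 261 and 227 CPM in WT and 317 and 369 CPM in Cis_KO, and B cell markers to 270 and 260 CPM against 233 and 412 CPM. Without Cd24a, the dendritic cell sum was 61.3 and 51.3 CPM in WT and 59.4 and 111 CPM in Cis_KO. Without Cd22, the most abundant B cell marker, the B cell sum was 6.31 and 3.00 CPM in WT and 1.485 and 167 CPM in Cis_KO. Of 9 tested B cell genes, 1 lay higher without overlap, 1 lay lower and 7 overlapped. The 1 that lay higher was Ms4a1, at 0 and 0.117 CPM in WT and 0.406 and 2.76 CPM in Cis_KO. The part of either cell type in the class II levels was not tested.

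The genes that load and build the DNA replication complex leaned the same way without being called. Of 32 cell cycle and replication genes, 16 lay higher and 3 lower without overlap, where 21.4% and 25.9% of all tested genes did. The median log2 change of the 32 was 0.34. Unadjusted p was under 0.05 for 9, and DESeq2 called 4 higher. Among the helicase subunits, Mcm2 stood at 54.9 and 59.5 CPM in WT and 92.6 and 93.4 CPM in Cis_KO. Mcm5 stood at 73.8 and 78.9 CPM against 120 and 128 CPM, and Mcm6 at 79.7 and 88.9 CPM against 149.5 and 131 CPM. Mcm3 and Mcm7 also lay higher without overlap. Mcm4, of the same complex, overlapped between the genotypes, at 61.6 and 59.8 CPM against 77.25 and 59.5 CPM. The proliferation marker Mki67 was not higher, at 56.8 and 72.3 CPM against 52.6 and 14.0 CPM. Ribosomal protein and oxidative phosphorylation genes were higher mainly in 1 library. The median of 38 ribosomal protein genes was 0.07 in Cis_KO replicate 1 and 0.93 in replicate 2, and that of 37 oxidative phosphorylation genes was 0.04 and 0.79.

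**Figure D5:**
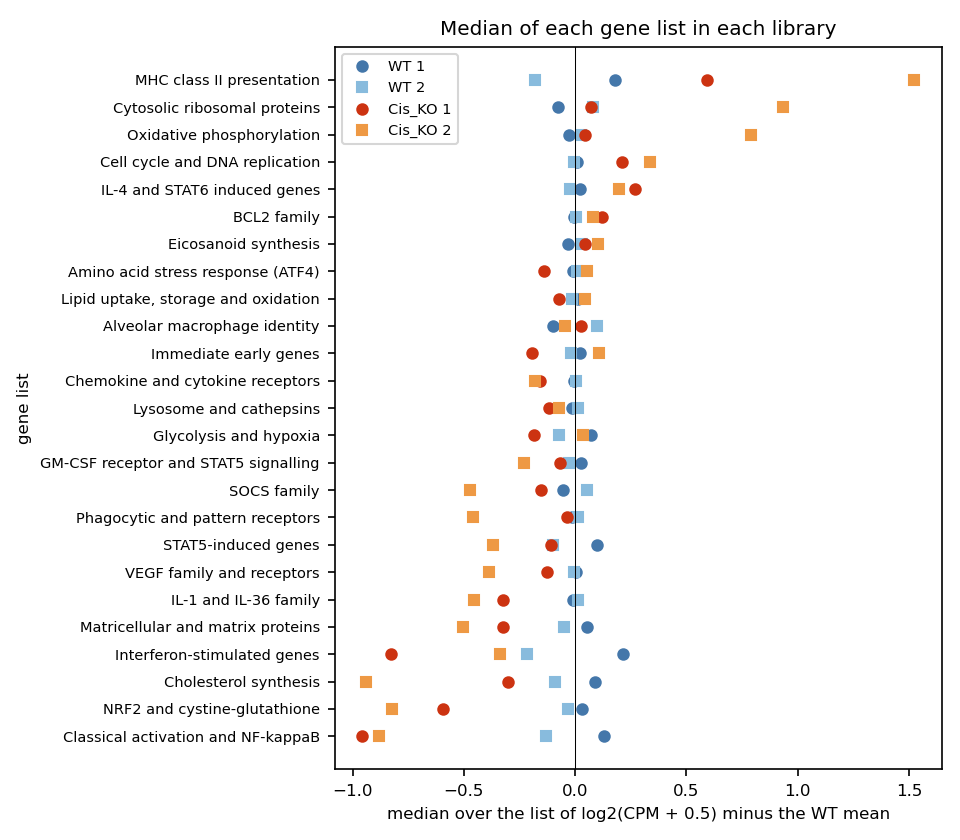
Median over each gene list of log2(CPM + 0.5) minus the WT mean, 1 point per library, lists ordered by their median log2 change. For classical activation and NF-kappaB genes the Cis_KO points lie together, at -0.96 and -0.88, whereas for ribosomal protein genes they lie at 0.07 and 0.93.

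Wide gaps were also found among genes that were separated without being called. Ugt1a6b, a glucuronosyltransferase whose gene shares exons with its neighbours, stood at 21.5 and 23.4 CPM in WT and 0.109 and 0.137 CPM in Cis_KO. Gdpd3, a lysophospholipase D, stood at 125 and 88.3 CPM against 3.36 and 0.525 CPM. Clca1, a secreted goblet cell protein, stood at 15.6 and 11.5 CPM against 0.266 and 0.365 CPM. Itgad, the CD11d integrin chain, stood at 76.9 and 85.7 CPM in WT, 7.85 CPM in Cis_KO replicate 1 and 0 CPM in replicate 2. Of the 198 genes separated lower, 51 had no read in Cis_KO replicate 2. On log2(CPM + 0.5), the 2 mutant libraries lay within 1.5-fold of each other in 114 of the 198 and in 57 of the 109. Genes near 0 CPM in both mutant libraries meet this through the added 0.5. The 114 is therefore no measure of how closely the replicates agreed.

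Several changed genes lie close to Cish on mm10 chromosome 9. Of 174 tested genes within 5 Mb, Cish itself included, 8 were separated (4.6%, against 1.83% of all genes). Cish is 1 of these 8, which raises the share. Called were 3 of the 174, where 0.274% of all tested genes were called. Alas1 lies 1.05 Mb away, Rpl29 0.864 Mb away and 6430571L13Rik 37.8 kb away. The last, a gene of unstated function, rose from 0.242 and 0.0585 CPM to 6.99 and 9.27 CPM. Cish and Dock3, which lies 64.1 kb away and had 1.78 and 1.37 CPM in WT and no read in either Cis_KO library, were separated lower, as were Tlr9, Rab6b and Ccrl2. Loss of CIS and position near the altered gene cannot be told apart for these genes in this design.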

How the data were processed

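RNA of BALF cells was sequenced in 6 libraries, 2 per genotype. The authors deposited a raw count per gene, not normalised per the file headers, and FPKM, which the authors computed per gene length and library. The submitters' processing notes name build mm10. The sources used here name no aligner, counter or strand setting, which leaves counts of overlapping, antisense and near-identical genes uncertain. A further table of the series was not used.

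Counts were tested with edgeR 4.0.16 (R 4.3.3) in all 6 libraries, with TMM scaling, filterByExpr (16765 of 40564 genes kept), genotype as the factor, glmQLFTest for Cis_KO minus WT, and Benjamini-Hochberg adjusted p under 0.05, two-sided. SE is the log2 change over the square root of F. Separation used log2(CPM + 0.5). The common biological coefficient of variation was 50.3%, on 3 residual degrees of freedom. Floors (3 counts) cover counting error only. The script was tested on simulated data.

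Members and gene lists were chosen with earlier results of these data known. Named were Cish and Stat6, up to 20 called genes per direction by adjusted p, 15 separated genes per direction by gap, and up to 4 members per list by gap or 3 by level. Any others were chosen after their values were seen, and some genes the rule names are not reported here. Alternatives were DESeq2 1.42.0, limma 3.58.1 (voom and trend), other scalings, filters and pseudocounts, a replicate block, and leaving out libraries.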

Additional observations from a re-analysis of the deposited data

How the results depend on the processing

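With 46 genes called in the main fit, other settings called 525 (DESeq2, 221 higher and 304 lower), 26 (library size without scaling), 1021 (no filter on low counts, 521 higher and 500 lower), 6 (only the 4 libraries of WT and Cis_KO), 74 (limma-trend on log2(FPKM + 1) with at least 0.5 FPKM) and 2 (the same without the filter). The 6 fits that left out 1 library called 3 to 5349. The count stayed within 1.5 times under limma-voom (37), voom with library quality weights (38), robust empirical Bayes, RLE size factors, a filter of 1 CPM, removal of haemoglobin, ribosomal RNA-like and mitochondrial genes, a log2 change of at least 1, and FPKM + 0.1. The balance of directions moved with library quality weights, to 27 higher and 11 lower, and with filtered log2(FPKM + 1) and log2(FPKM + 0.1), to 24 and 50 and to 18 and 41. DESeq2 kept all 46 calls, limma-voom 28 and library size without scaling 25. No called gene reversed under these or the left-out libraries, but all 46 were separated, so a reversal was hardly possible. Of 307 separated genes, FPKM in place of CPM gave 184 and any gap at all 6496, and leaving out 1 library gave 474 to 3165.

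With the replicate number as a block, 24 genes were called, 10 higher and 14 lower, of which 22 were among the 46. The deviations of replicate 1 from its group mean correlated at -0.072 across genes between WT and Cis_KO. Between WT and Cis_Stat6_DKO the value was -0.121, and between Cis_KO and Cis_Stat6_DKO it was 0.055. With 2 libraries per genotype, of which Cis_KO replicate 2 stood apart, these values cannot tell whether the numbers pair the samples.

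Uncalled genes that reversed (log2 change) were Stat6 (-0.014 without scaling) and Ighm (-0.448 with the replicate block). Over the fits without 1 library, values of genes that reversed ranged from -0.07 to 0.204 for Stat6, -3.55 to 7.91 for Hba-a1, -0.60 to 3.50 for S100a8, -0.14 to 1.68 for Ltf, -2.45 to 3.81 for Ighm, -1.04 to 1.83 for Scgb1a1, -0.14 to 0.37 for Csf2ra, -0.786 to 0.077 for Stat5a and -0.356 to 0.002 for Stat5b. All but Stat6 reversed without Cis_KO replicate 2, and the causes were not tested.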

Other observations

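The neighbouring heat shock genes Hspa1a and Hspa1b, picked after their values were seen, were separated lower without being called. Hspa1a stood at 323 and 183 CPM in WT and 56.9 and 24.8 CPM in Cis_KO, and Hspa1b at 286 and 161 CPM against 59.5 and 17.2 CPM. They are near-identical copies, so their counts are uncertain. Of 24 tested glycolysis and hypoxia genes, none was separated or called by edgeR or DESeq2, and 6 had an unadjusted p under 0.05. With 1.83% of all tested genes separated and 0.274% called by edgeR, none among 24 is near the background and is no result about the list. Outside that list, Epas1, which encodes HIF-2 alpha, was separated higher at 3.99 and 4.11 CPM against 17.5 and 32.8 CPM, and Car9, a carbonic anhydrase, at 0.121 and 0.248 CPM against 3.16 and 2.76 CPM. Plxnb2, a semaphorin receptor, was separated higher at 21.8 and 14.0 CPM against 108 and 142 CPM, and stood at 2.38 and 1.15 CPM in Cis_Stat6_DKO.

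Nnt, the mitochondrial transhydrogenase, is listed under 2 gene IDs at overlapping positions. ENSMUSG00000116207 stood at 21.9 and 5.01 CPM in WT and at 0 CPM in both Cis_KO libraries, and ENSMUSG00000025453 at 8.09 and 24.2 CPM against 56.7 and 52.7 CPM. Summed over both IDs, Nnt stood at 30.0 and 29.2 CPM in WT and 56.8 and 52.7 CPM in Cis_KO.

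Epcam and Cdh1, both epithelial adhesion genes, moved apart. Epcam was separated lower at 28.9 and 22.6 CPM against 3.36 and 4.41 CPM, while Cdh1 stood at 31.2 and 37.0 CPM against 55.0 and 68.6 CPM and was not separated.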
